A study of Mus musculus with 17 samples.

Results

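The 10 genes described here are Tsr1, Irak1, Prmt2, Ercc2, Hipk3, Map3k15, Dgcr8, Chpf2, Zbtb20 and Ncl, found by their symbols among the 30843 loci of an RNA-seq table of mouse mammary gland. They were chosen from the measured values, because each had a very high or very low value in the columns made from single-end reads while related genes did not follow. Those single-end values are therefore a description with no test. The paired-end columns of the same table did not enter the choice and show whether the values recur. Each gene had 1 locus and all 10 passed the filter on low values, which kept 11565 loci.

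The samples were mammary glands of female C57Bl/6 mice, all nulliparous, in 17 libraries. They came from 4 genotypes. WT mice are labelled wild type. AROM mice carried tet-op-CYP19A1 with MMTV-rtTA, a tetracycline-controlled gene of aromatase, the enzyme that makes estrogens from androgens. CERM mice carried tet-op-Esr1 with MMTV-rtTA, an estrogen receptor alpha gene under the same control. BRCA mice were Brca1fl11/fl11/MMTV-Cre/p53+/-, with floxed Brca1 alleles, Cre and 1 lost p53 allele. The MMTV promoter drives rtTA and Cre mainly in mammary epithelium, so other cells of the gland are not the intended site of the changes they bring. The lost p53 allele of BRCA mice is not under MMTV control and is not limited to epithelium. The labels give no ages and no inducer treatment.

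The labels hold 2 single-end libraries for each genotype, and 1 WT, 3 AROM, 3 CERM and 2 BRCA paired-end libraries. The table holds 1 value for each gene, genotype and read layout, in 8 columns, so no spread between animals can be given and no test was possible. Values are FPKM, fragments scaled to transcript length and to the total of mapped fragments, which can be compared between genes because of the scaling to length. Depth is unknown, since no counts come with the values. Over the genes analysed the 8 columns had medians from 7.84 to 10.03 FPKM. Summed over all loci, FPKM came to between 894860 and 1048763 in the single-end columns but to 4255000 (WT), 119835349 (AROM), 4315982 (CERM) and 6243130 (BRCA) in the paired-end ones, so the paired-end columns hold very large values too, and their part in the comparisons was not tested. Of 18 markers of mammary epithelium, fat, muscle and leukocytes, 16 had a row of their name, and all 16 reached at least 1.18 FPKM in every column. Of the engineered genes, Esr1 was at 8.49 (single-end) and 8.41 FPKM (paired-end) in CERM against 7.27 and 6.89 in WT, but at 8.41 and 7.87 in AROM, which carries no Esr1 transgene. Trp53 was lowest in BRCA, at 12.3 and 12.1. Brca1 was at 3.28 and 3.29 in BRCA against 1.13 and 0.851 in WT, which counts reads outside the floxed exon too, and mouse Cyp19a1 was at most 0.0591, a row that need not capture a CYP19A1 transgene. The summed FPKM of 3 muscle markers, Acta1, Myh4 and Ckm, differed between columns, at 5402 (WT), 14562 (AROM), 17558 (CERM) and 7323 (BRCA) in single-end columns and at 9417, 10006, 12595 and 7468 in paired-end ones.

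The genes belong to different pathways. Tsr1 helps to mature the small ribosomal subunit, and Ncl encodes nucleolin, an abundant nucleolar protein that binds ribosomal RNA precursors. Dgcr8 is the partner of Drosha in the complex that cuts microRNA hairpins from primary transcripts. Prmt2 methylates arginines in proteins, Zbtb20 is a transcriptional repressor with a BTB domain and zinc fingers, and Ercc2 is a helicase of the transcription and DNA repair factor TFIIH. Irak1 is a kinase that carries Toll-like and interleukin 1 receptor signals, Hipk3 is a homeodomain-interacting kinase, and Map3k15 is a MAP kinase kinase kinase of stress signalling. Chpf2 takes part in building the sugar chains of chondroitin. Small RNAs such as microRNAs and snoRNAs are often made from within longer genes, here called hosts, most often from introns and less often from exons.

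In 7 of the 10 genes an annotated microRNA hairpin overlapped an exon on the same strand, a feature that the choice of genes did not use. Among the 10219 protein-coding genes analysed and matched to the annotation, 128 had such a hairpin, these 7 included. The mature sequences of the hairpins in the 7 genes are shown because most of the 10 genes have such a hairpin. They are from RefSeq with build GRCm38.p6, written from the first base, with bases 2 to 8, the seed that pairs with targets, in capitals.
mmu-miR-5132-5p, Irak1: gCGUGGGGugguggacucagg
mmu-miR-5132-3p, Irak1: cUGAUGUUccccaucccgcag
mmu-miR-718, Irak1: cUUCCGCCcggccgggugucg
mmu-miR-678, Prmt2: gUCUCGGUgcaaggacuggagg
mmu-miR-343, Ercc2: uCUCCCUUcaugugcccaga
mmu-miR-1902, Hipk3: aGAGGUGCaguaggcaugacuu
mmu-miR-1306-5p, Dgcr8: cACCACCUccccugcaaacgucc
mmu-miR-1306-3p, Dgcr8: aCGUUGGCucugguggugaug
mmu-miR-3618-5p, Dgcr8: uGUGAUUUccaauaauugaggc
mmu-miR-3618-3p, Dgcr8: cUACAUUAaugaaaagagcaau
mmu-miR-671-5p, Chpf2: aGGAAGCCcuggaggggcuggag
mmu-miR-671-3p, Chpf2: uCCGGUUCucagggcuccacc
mmu-miR-568, Zbtb20: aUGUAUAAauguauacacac
No seed occurred more than once: with the mature form from Ncl, mmu-miR-3535, the 14 mature microRNAs had 14 distinct seeds. The hairpins thus do not share a seed.

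Of the genes of ribosome assembly, Tsr1 had the highest single-end values of the 10. Its single-end FPKM was 592 (WT), 9.80 (AROM), 404 (CERM) and 11.9 (BRCA). The paired-end values were 6.02, 4.64, 5.72 and 8.29 in the same order. Thus WT and CERM were high in the single-end columns, while the 4 paired-end columns lay close together and below all 4 single-end ones. The single-end value was 98.4 times the paired-end one in WT and 70.6 times in CERM, and 2.11 and 1.43 times in AROM and BRCA. In bulk tissue fewer cells of a type and less RNA per cell cannot be told apart, which holds for every level given here.

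Ncl was listed at 0 in the single-end WT column, against 102 in AROM, 104 in CERM and 139 in BRCA. The paired-end values were 107 (WT), 73.2 (AROM), 111 (CERM) and 142 (BRCA). The paired-end WT column thus fell among the other values, and no ratio is given for the listed 0. In the other 3 genotypes the layouts differed by 1.40 times or less. A listed 0 of this kind was rare: 6 genes, 0.0519% of those analysed, were at 0 in 1 column and at 10 FPKM or more in the other 7. The other 5, Snora33, Tmem183a, Nrap, Snora65 and Snora52, were all at 0 in the paired-end WT column, so both WT columns carry such values.

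Dgcr8, of microRNA processing, had single-end FPKM of 28.5 (WT), 45.9 (AROM), 5.82 (CERM) and 7.62 (BRCA). Its paired-end FPKM was 4.86, 4.01, 5.97 and 6.72. WT and AROM were the high single-end columns, at 5.87 and 11.4 times their paired-end values. The CERM and BRCA columns differed little between layouts, at 0.974 and 1.14 times.

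Zbtb20, the repressor, had single-end FPKM of 9.23 (WT), 16.1 (AROM), 134 (CERM) and 5.09 (BRCA). In the paired-end columns it was at 3.66, 2.90, 4.38 and 4.95. CERM was by far the highest single-end column, at 30.6 times its paired-end value, and AROM and WT were higher by 5.55 and 2.52 times. Only the BRCA columns were alike, at 1.03 times.

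Prmt2, the methyltransferase, had single-end FPKM of 49.2 (WT), 232 (AROM), 52.9 (CERM) and 10.6 (BRCA). The paired-end values were 8.68, 9.53, 8.15 and 10.3. All 4 single-end values lay above all paired-end ones, and 3 of them far above, by 5.67 times in WT, 24.3 times in AROM and 6.49 times in CERM. The single-end BRCA column, the lowest of the 4, was the one that lay near its paired-end value, at 1.03 times. In the single-end columns alone BRCA and AROM stood about equally far from the median of the other 3, at -2.22 and 2.21 (log2).

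Ercc2, the TFIIH helicase, had its highest value of all in a paired-end column. Its single-end FPKM was 40.3 (WT), 165 (AROM), 141 (CERM) and 4.79 (BRCA). Its paired-end FPKM was 7.61 (WT), 4.72 (AROM), 308 (CERM) and 4.50 (BRCA). In CERM the layouts were both high, the paired-end column 2.18 times above the single-end one and 40.5 times above paired-end WT. In AROM and WT only the single-end column was high, by 34.9 and 5.29 times, and in BRCA neither was. The next numbered locus of the table after Ercc2 is that of Ckm, the muscle creatine kinase, named here after its values were seen. Its FPKM was 1766 (WT), 5292 (AROM), 5689 (CERM) and 2287 (BRCA) in single-end columns and 3081, 3590, 4010 and 2338 in paired-end ones. Ckm was thus highest in CERM in both layouts and changed far less than Ercc2; its part in the Ercc2 values was not tested.

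Among the kinases, Irak1 had single-end FPKM of 22.9 (WT), 217 (AROM), 22.3 (CERM) and 173 (BRCA). Its paired-end FPKM was 21.5, 23.1, 21.9 and 27.8. The single-end AROM and BRCA columns were high, at 9.40 and 6.21 times their paired-end values, and WT and CERM were within 1.07 times.

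Hipk3, like Ncl, had 1 column apart. The single-end FPKM was 149 (WT), 24.3 (AROM), 28.3 (CERM) and 28.0 (BRCA), and the paired-end FPKM was 20.4, 18.7, 26.2 and 26.5. Only the single-end WT column was high, at 7.29 times its paired-end value, while the other 7 values lay between 18.7 and 28.3.

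Map3k15 varied in both layouts. The single-end FPKM was 62.1 (WT), 88.3 (AROM), 6.77 (CERM) and 4.97 (BRCA), and the paired-end FPKM was 15.1, 3.89, 2.97 and 13.3. The WT column was high in both layouts and CERM low in both. AROM was the highest single-end column, at 22.7 times its paired-end value, and BRCA was lower in the single-end column, at 0.375 times.

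Chpf2, of chondroitin synthesis, had single-end FPKM of 10.4 (WT), 58.1 (AROM), 9.43 (CERM) and 20.3 (BRCA), and paired-end FPKM of 8.70, 13.4, 8.75 and 9.43. AROM was high at 4.33 times its paired-end value and BRCA at 2.15 times. In the paired-end columns AROM was also the highest, at 1.54 times WT.

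**Figure D1:**
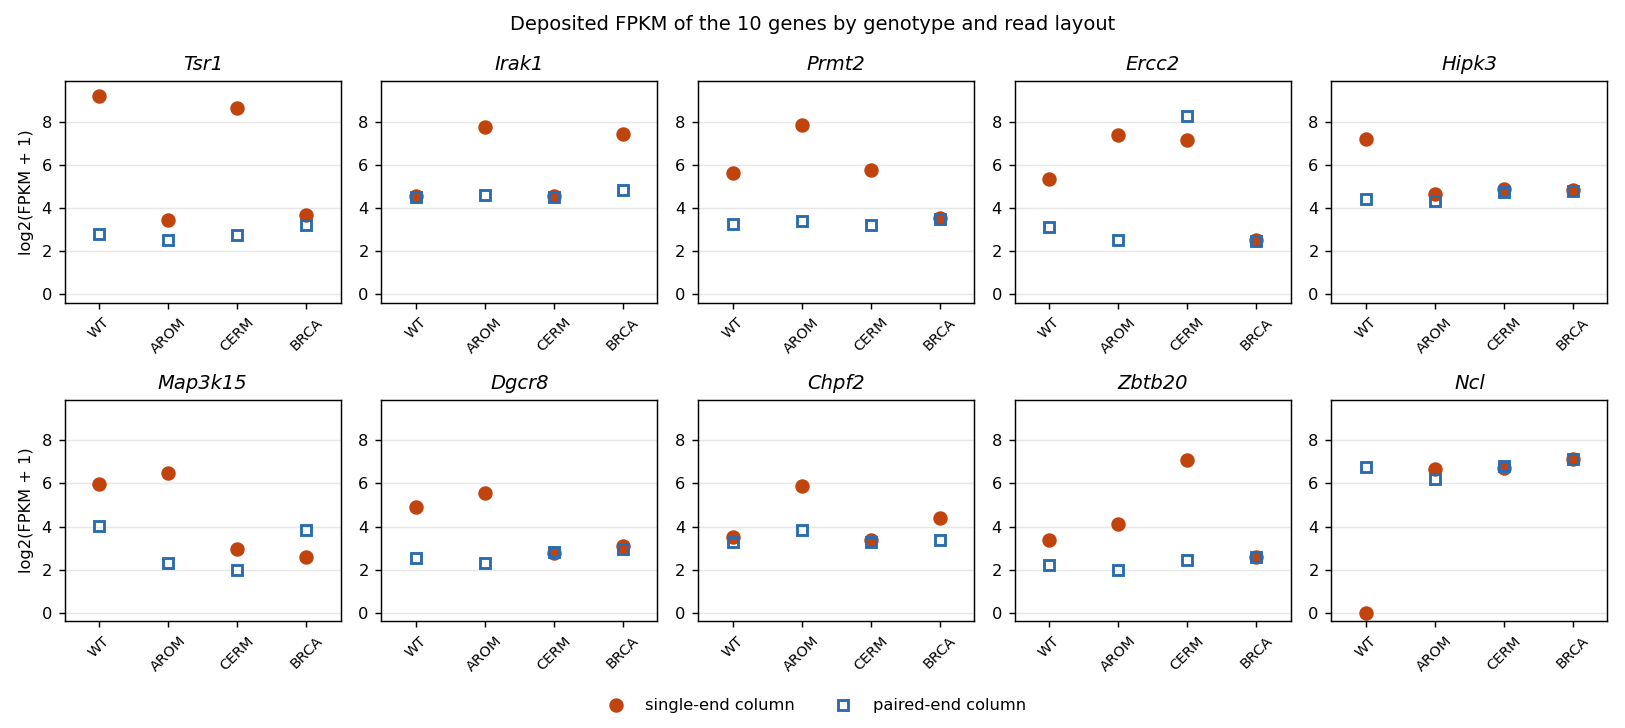
FPKM of the 10 genes on the log2(FPKM + 1) scale, with 1 panel for each gene, the 4 genotypes along the horizontal axis, filled circles for single-end columns and open squares for paired-end columns. Each mark is 1 pooled value with no replicates; most circles that stand high have no square beside them, except for Ercc2 in CERM, and the Ncl circle of WT lies at 0.

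Comparing the layouts of each genotype places the extreme values. A gene was called apart when its 2 values of FPKM + 1 differed by at least 2-fold. In WT 7 of the 10 genes were higher in the single-end column and 1, Ncl, was lower, where 1.56% of all genes analysed were apart in either direction. In AROM 7 were higher and 0 lower (1.77% of all genes). In CERM Tsr1, Prmt2 and Zbtb20 were higher and Ercc2 was lower (2.4%). In BRCA Irak1 and Chpf2 were higher and Map3k15 was lower (1.28%). In all, 22 of the 40 pairs of values were apart, 19 of them higher in the single-end column and 3 lower, and 18 were within 2-fold. Since the single-end values chose the genes, nothing is read from these counts beyond where the values lie. BRCA held the fewest and WT the most.

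**Figure D2:**
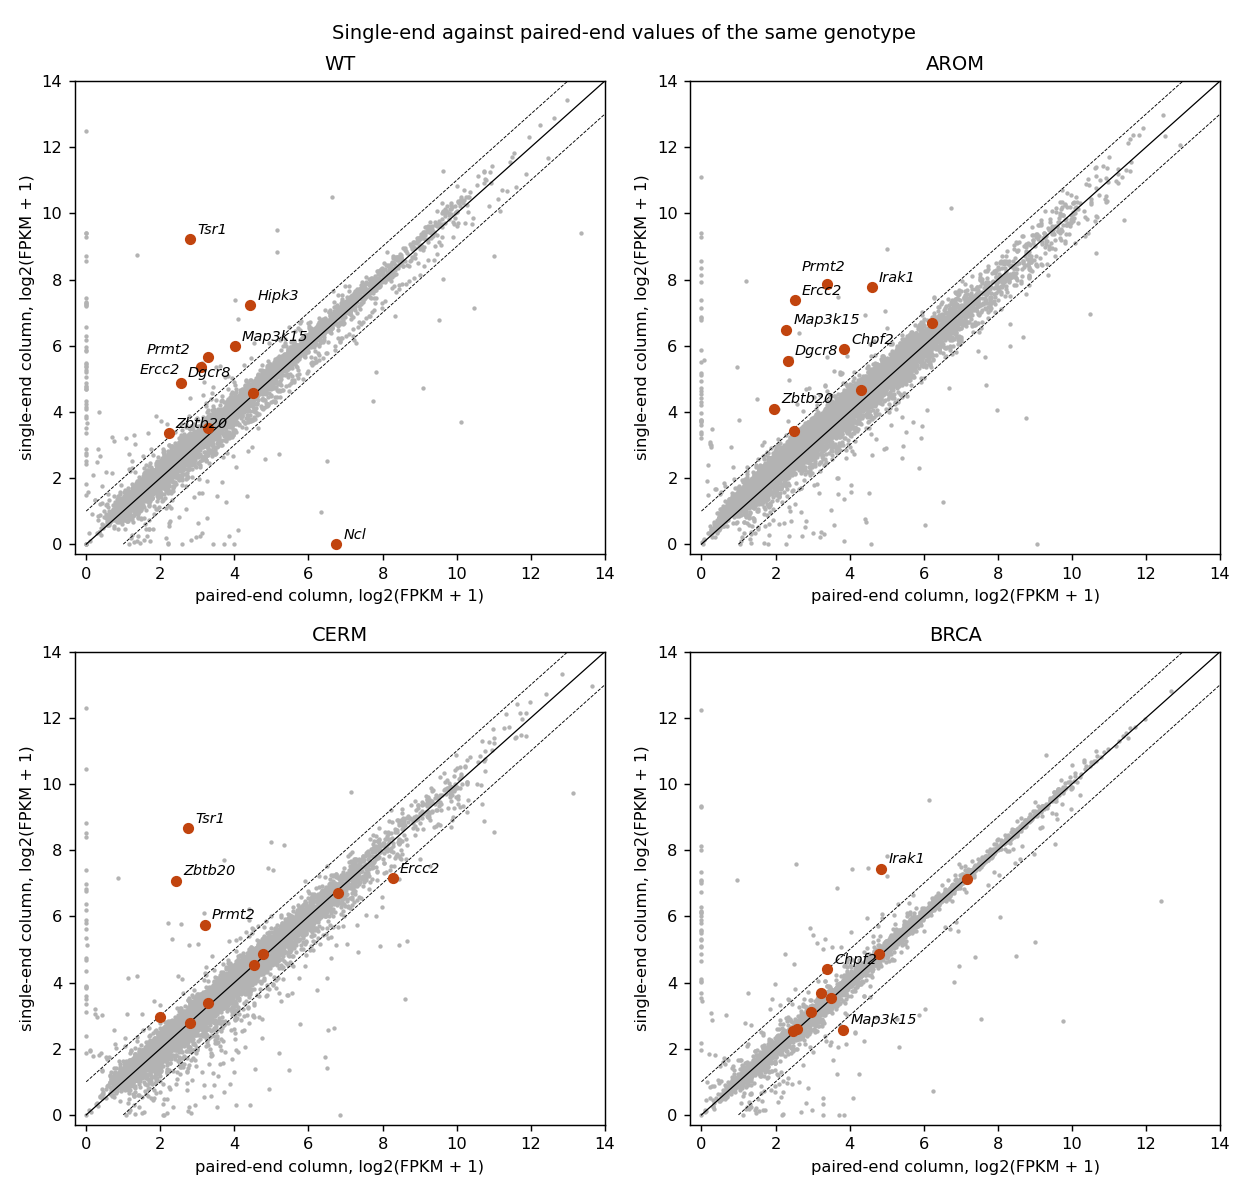
Single-end against paired-end values of the 11565 genes analysed, both as log2(FPKM + 1), with 1 panel for each genotype; the solid line marks equal values, the dashed lines 2-fold, and large points the 10 genes, named where they are apart. Most genes lie within the dashed lines, and in WT 8 of the 10 genes lie outside them against 3 in BRCA.

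The share of genes with a single-end value at least 4-fold above the paired-end one in any genotype was 0.778%, or 90 genes. This count also takes in genes with a paired-end value listed at 0, such as Tmem183a in WT, at 19.2 FPKM in the single-end column. All of the 10 genes but Ncl were among these 90, which again reflects how they were chosen. Chpf2 was near the line, with a log2 ratio of 2.04 in AROM that fell to 1.71 under median-ratio scaling and 1.74 under quantile normalization, where 8 of the 10 genes were past 4-fold. The median log2 ratio of single-end to paired-end FPKM + 1 over all genes was 0.13 (WT), 0.24 (AROM), 0.07 (CERM) and 0.04 (BRCA). For the genes with high values the ratios were far above these shifts, such as 6.40 for Tsr1 in WT, 4.65 for Zbtb20 in CERM and 4.47 for Prmt2 in AROM.

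The comparisons with WT turned on the layout. In the single-end columns 5 of the 10 genes were 2-fold higher and 2 lower in AROM, where 3.91% of all genes were apart in either direction. In CERM 3 were higher and 3 lower (4.06%), and in BRCA 2 were higher and 6 lower (4.62%). These columns chose the genes, so no more is read from them. In the paired-end columns 1 gene of 10 was apart in AROM, Map3k15, which was lower by 3.89 times (4.84% of all genes). In CERM 1 was higher, Ercc2, and 1 lower, Map3k15 by 5.09 times (4.29%). In BRCA 0 of 10 were apart (5.53%). The single-end calls of Tsr1, Irak1, Prmt2, Hipk3, Dgcr8, Chpf2, Zbtb20 and Ncl therefore had no counterpart past 2-fold in the paired-end columns.

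The 2 calls of Map3k15 in the paired-end columns do not follow its single-end ones throughout. In CERM against WT it was lower in both layouts, by -3.02 (log2) in the single-end and -2.02 in the paired-end columns. In AROM it was lower only in the paired-end columns, at -1.72, against 0.50 in the single-end ones. In BRCA it was lower only in the single-end columns, at -3.40 against -0.18. All comparisons in a layout share its WT column, so the 3 are not independent of one another.

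The highest and lowest of the 4 columns were at least 2-fold apart for all 10 genes in the single-end layout, where 12.8% of all genes were. In the paired-end layout this held for 2 of 10, Ercc2 at 68.5-fold and Map3k15 at 5.09-fold, against 19.7% of all genes. The other 8 had paired-end ranges from 1.27-fold for Prmt2 to 1.93-fold for Ncl. The paired-end share of 2 of 10 is thus close to that of all genes.

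Most of the genes were extreme in more than 1 single-end column. A value was called isolated when it lay at least 4-fold from the median of the other 3 columns and those 3 lay within 2-fold of one another. By this rule 41 genes, 0.355% of those analysed, had an isolated single-end value and 56, 0.484%, an isolated paired-end one. Hipk3 and Ncl, both in WT, were the 2 of the 10 genes with an isolated single-end value. Ercc2 in CERM was the 1 with an isolated paired-end value. Tsr1, Irak1, Map3k15 and Dgcr8 each had a pair of high single-end columns, and Prmt2 and Ercc2 had 3. The description of the genes by 1 extreme column thus holds for few of them, and the columns that were high differed from gene to gene.

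Isolated single-end values mostly recurred, and isolated paired-end values did so less often. Among the 10 largest isolated values of each layout, loci with small RNA or Gm symbols made up 3 (single-end) and 7 (paired-end). The shares below thus cover partly unlike kinds of loci. Of the 41 genes with an isolated single-end value, 32 (78%) were at least 2-fold from the median of the other 3 in the same genotype and direction in the paired-end columns. Of the 2 among the 10 genes, neither Hipk3 nor Ncl did. Ccl8, a chemokine and 1 of the 10 genes with the largest isolated single-end values, shows the usual case. Its FPKM was 351 in single-end BRCA against a median of 31.3 in the other 3 columns, a log2 distance of 3.45, and the distance was 3.75 in the paired-end columns. Of the 56 isolated paired-end values 29 (51.8%) recurred in the single-end columns. That of Ercc2 was counted among them, at a single-end log2 distance of 1.79, but its single-end values were those that chose it. In the single-end columns CERM was also not its highest, at 141 FPKM against 165 in AROM.

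The genes share a feature of position. In the GENCODE M21 annotation, of build GRCm38, 9 of the 10 held an annotated microRNA, snoRNA or snRNA on their own strand, all but Map3k15. Among the 10219 protein-coding genes analysed and matched to this annotation, 790 (7.73%) held one. The genes with an isolated value did not have such a share: 5 of 32 matched genes (15.6%) in the single-end and 3 of 39 (7.69%) in the paired-end columns. The 5 include Hipk3 and Ncl, and the 3 include Ercc2. The small RNAs of the 10 genes number 16 and are between 70 and 147 bases long as annotated. The table has a row for 2 of them.

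By place, the hairpins lay in different parts of their hosts. Mir1306 in Dgcr8, on chromosome 16, and Mir671 in Chpf2, on chromosome 5, lay in coding exons. Mir343 in Ercc2, on chromosome 7, and Mir5132 in Irak1, on chromosome X, lay across the edge of a coding exon. Mir678 in Prmt2 on chromosome 10, Mir1902 in Hipk3 on chromosome 2 and Mir568 in Zbtb20 on chromosome 16 lay in the 3′ UTR. Mir718 overlapped the edge of the 5′ UTR of Irak1, and Gm24572, the gene that RefSeq links to mmu-miR-3618, lay in the 5′ UTR of Dgcr8. None of these microRNA genes has a row of its own in the table. In Tsr1, on chromosome 11, the small RNAs were the intronic snoRNAs Snord91a and Gm22771, also with no row.

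Ncl, on chromosome 1, held its small RNAs in introns, among them 2 with rows of their own. Snora75 was at FPKM 0 (WT), 18.6 (AROM), 11.2 (CERM) and 36.0 (BRCA) in the single-end columns. In the paired-end columns it was at 0, 0, 6.28 and 7.69. Snora75 and Ncl were thus both listed at 0 in single-end WT, but Snora75 was at 0 in paired-end WT too, where Ncl was at 107. Snord82 was listed at 0 in all 8 columns.

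Over the whole table, single-end values at least 4-fold above paired-end ones were counted by the place of the small RNA, a split made after the data were seen. They occurred in 9 of 128 genes (7.03%) with a microRNA over an exon. Of these 9, 7 are from the 10 genes described here, which were chosen for extreme single-end values. Without the 10 genes the count was 2 of 121 (1.65%), Glce and Vezt. Among genes with no annotated small RNA it was 20 of 9420 (0.212%) without the 10 genes. Genes with an intronic small RNA gave 2 of 519 (0.385%) where it had no row, and 0 of 141 where it had one. Of the 8 genes with another kind of small RNA over an exon, 1 had such a value, Rabggtb, the highest share of these classes but over few genes. Loci not matched to a protein-coding gene, which include the small RNA loci themselves, gave 56 of 1346 (4.16%). Under median-ratio scaling Chpf2 left the first count and the count without the 10 genes was 1 of 121 (0.826%). The outside counts are small, and the part of the small RNAs in the values of the 10 genes was not tested. Map3k15 has no annotated small RNA, and its single-end AROM value was 22.7 times the paired-end one.

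**Figure D3:**
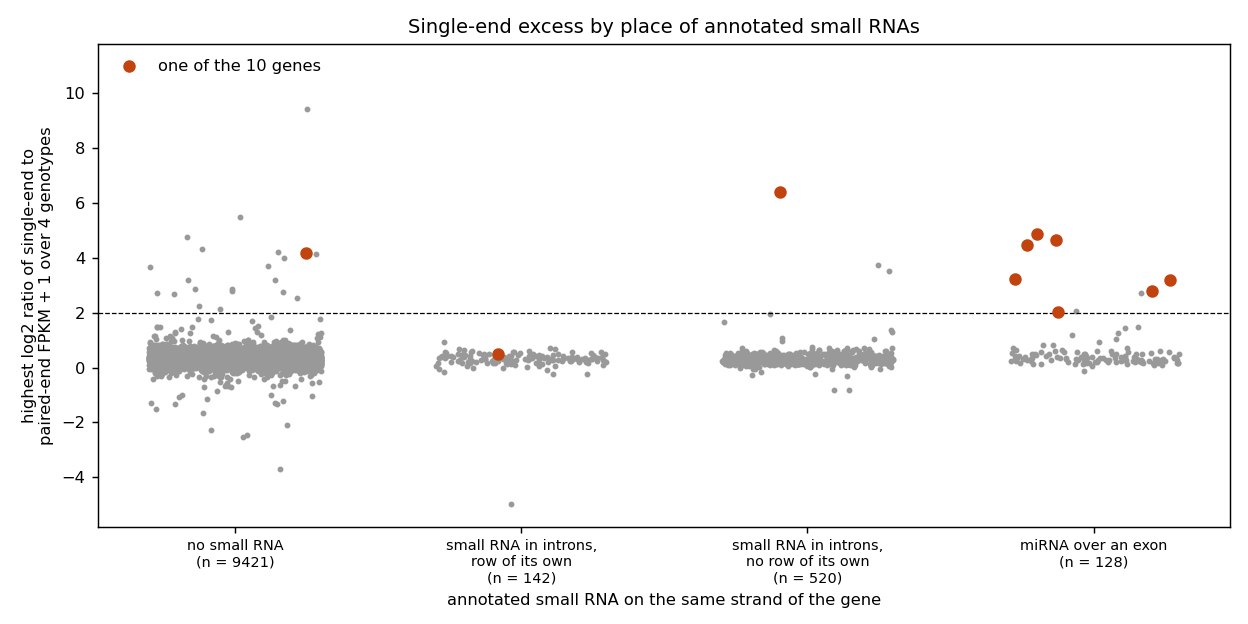
Highest log2 ratio of single-end to paired-end FPKM + 1 over the 4 genotypes, for genes grouped by the place of annotated small RNAs on their own strand; each point is 1 gene, spread sideways for display, large points are the 10 genes, and the dashed line marks 4-fold. Of the 128 genes with a microRNA over an exon, 9 lie on or above the line, 7 of them large points, and 21 of 9421 genes with no small RNA do.

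Genes of the same pathway or family were set beside each of the 10 in its most distant single-end column. They were listed by name, and 90 of them were analysed, giving 107 pairs with a gene since Tsr1 and Ncl share a list. In 0 of the 107 pairs was the related gene at least 2-fold from the median of its other 3 columns, where between 2.51% and 4.54% of all genes were, by genotype. The list medians of this log2 distance lay between -0.22 and 0.15, beside medians over all genes between -0.04 and 0.03. That related genes did not follow was part of the choice of the 10 genes, so these counts describe the choice.

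In WT, the column of Tsr1 and Ncl, the 17 genes of ribosome assembly and the nucleolus had a median log2 distance of 0.07. Npm1, an abundant nucleolar chaperone, lay farthest at 0.57, with 402 FPKM in the single-end and 311 in the paired-end column, followed by Ubtf at 0.23. Tsr2, which also acts in ribosome maturation, was at 4.73 and 5.39 FPKM, against 592 and 6.02 for Tsr1. Among the receptor signalling genes in AROM, the paralogs of Irak1 were level, Irak2 at a distance of 0.02 and Irak4 at -0.17, and Traf6 and Peli1 lay farthest at -0.59 and -0.41. In BRCA, Prmt1 was at -0.17 and Prmt7 at -0.18. Of the TFIIH genes, the helicase Ercc3 was at 0.29 where Ercc2 was at -4.62, and Gtf2h5 and Mnat1 lay farthest at -0.39 and -0.38. For both Prmt2 and Ercc2, BRCA was the lowest single-end column and lay near its paired-end value. The single-end and paired-end FPKM there were 10.6 and 10.3 for Prmt2 and 4.79 and 4.50 for Ercc2. Their related genes were not compared in AROM, where their single-end values were highest.

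For the other kinases, Hipk1 was at -0.18 in WT, where Hipk3 was at 2.37, and the farthest of its list were Dyrk3 at 0.50 and Dyrk2 at -0.32. Map3k5 and Map3k6 were at 0.12 and 0.05 in AROM, where Map3k15 was at 3.52, and Map3k1 and Map3k3 lay farthest at -0.58 and -0.40. Among the microRNA processing genes in AROM, Drosha was at -0.03 and Dicer1 at -0.23, against 2.44 for Dgcr8, and Eif2c1 and Eif2c2 lay farthest at -0.36 and -0.28. Chpf was at 0.09 in AROM against 2.38 for Chpf2, with Chst12 and B3gat3 farthest at 0.35 and 0.22. In CERM Zbtb16 and Zbtb4 lay farthest of their list, at -0.42 and 0.37, against 3.72 for Zbtb20. Between the layouts 1 of the 107 pairs was 2-fold apart, Map3k12 in AROM, at 1.57 FPKM in the single-end and 13.4 in the paired-end column.

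**Figure D4:**
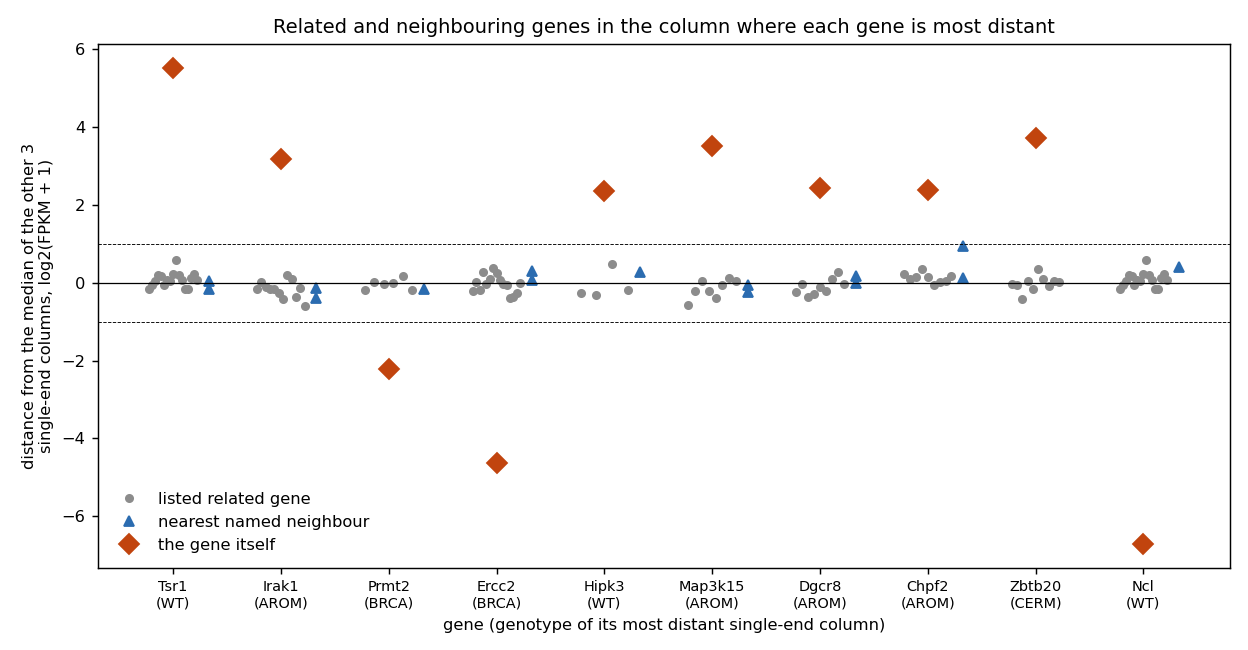
Distance of each of the 10 genes (diamonds), its listed related genes (circles) and its nearest named neighbours on the chromosome (triangles) from the median of the other 3 single-end columns, on the log2(FPKM + 1) scale, in the column where the gene was most distant. The dashed lines mark 2-fold. All circles and triangles lie between them and all diamonds lie outside. For Prmt2 and Ercc2 the column shown is BRCA, the low one that lay near its paired-end value.

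The nearest named genes on each side of the 10 were 20, of which 15 passed the filter on low values. The column used was the one where the gene between them was most distant. For Prmt2 and Ercc2 this was BRCA, where their layouts were alike. In these columns 0 of the 15 neighbours were at least 2-fold away, with log2 distances from -0.38 to 0.95. The largest was that of Smarcd3, a chromatin remodelling subunit that overlaps Chpf2 on the opposite strand. Its FPKM was 19.9 (WT), 39.5 (AROM), 40.3 (CERM) and 17.9 (BRCA) in the single-end columns and 26.5, 30.1, 32.2 and 17.7 in the paired-end ones. Smarcd3 was high in CERM as well as AROM, where Chpf2 was high in AROM and not in CERM. The part of Smarcd3 in the Chpf2 values was not tested. Opposite-strand genes also overlap Tsr1 (Srr), Ercc2 (Klc3), Map3k15 (Pdha1) and Dgcr8 (Trmt2a), and how strand was handled in the quantification is not given here. Over the 8 columns Srr lay between 7.88 and 9.56 FPKM and Klc3 between 4.65 and 18.5. Pdha1 lay between 230 and 308 and Trmt2a between 5.79 and 7.97. The part of these overlapping genes in the values of Tsr1, Ercc2, Map3k15 and Dgcr8 was not tested.

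The genes whose pattern over the 8 columns was most like each of the 10 were found by Pearson's r of log2(FPKM + 1), given with no p because the genes were chosen for these patterns. For Hipk3 it was Pfas, a purine synthesis enzyme (r = 0.98), at 11.3 FPKM in single-end WT and between 2.96 and 3.85 in the other 7 columns. Pfas also has an annotated microRNA over an exon. For Dgcr8 the second most like was Eme1, a DNA repair nuclease subunit (r = 0.97), with 7.63 (WT), 12.4 (AROM), 0.349 (CERM) and 1.81 (BRCA) in the single-end columns. Its paired-end values lay between 0.694 and 1.13, so the high columns of Eme1 did not recur either. It has no annotated small RNA. Small RNAs inside the other similar genes are not described here.

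For Chpf2 the most like was the kinase Cdk9 (r = 0.97), which was also second for Irak1 (r = 0.94). Cdk9 was at 14.5 (WT), 35.3 (AROM), 11.9 (CERM) and 21.4 (BRCA) in the single-end columns and between 11.9 and 13.3 in the paired-end ones. For Tsr1 it was Fam65a (r = 0.98), at 22.6 and 21.1 in single-end WT and CERM and between 8.44 and 10.6 in the other 6 columns. These genes were high in the same single-end columns as the gene they resemble, with smaller differences. For Prmt2, Ercc2, Map3k15 and Zbtb20 the leading genes, Fam149b, Pde2a, Trim45 and Islr2, had r from 0.95 to 0.99 and small changes, such as 15.7 to 18.9 FPKM for Fam149b. For Ncl it was Snora16a (r = 0.91), a snoRNA also listed at 0 in single-end WT and at 9.77 in paired-end WT.

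The WT columns differ from the others in how they were made. In single-end WT 46.7% and in paired-end WT 43.3% of all values have endless repeating decimals, such as those left by dividing a sum by 3, and in the other 6 columns at most 0.0227% do. The labels give 2 single-end and 1 paired-end WT libraries, and no source used here says which 3 values were averaged. Of the WT values of the 10 genes, 592 for Tsr1 and 149 for Hipk3 become numbers with 3 decimals when multiplied by 3. Values of the other columns carry 6 digits, so 3 decimals are what 3 numbers of at least 100 each would leave. Among all genes with single-end WT values from 100 to 1000, 96.4% of 589 had 3 decimals or fewer. A trailing 0 can give the same, as it must for Hipk3 in paired-end WT, where 20.4 had 3 decimals too, so the digits do not settle whether 1 or all of the values averaged were high. If the 0 of Ncl in single-end WT is such a mean, each value averaged was 0, since FPKM is never negative.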

How the data were processed

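Per the labels' protocols, polyadenylated RNA of mammary glands was made into TruSeq libraries, which were sequenced by single- and paired-end methods independently. Whether a single-end and a paired-end library share an animal is not given. The submitters' processing notes name build mm9 and the tools Cufflinks, TopHat, FastQC and Trim Galore, with no versions. In the deposited table each of the 30843 loci has FPKM values in 8 columns, each pooling a genotype and layout of the 17 libraries by a step that no source used here states.

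The planned limma fit could not be run without a column for each library, so there are no tests, and depth and replicate spread are unknown. Loci with 1 symbol of their own (20420) and an FPKM of 1 or more in 4 or more of the 8 columns were kept (11565) and analysed as deposited, as log2(FPKM + 1), which understates the ratios of low genes. Ratios of FPKM were taken without the pseudocount, and calls at 2-fold with it.

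The members and lists were chosen with earlier results of these data known. Named by rule were the 10 genes, listed paralogs and the 2 related genes most distant in each list, the nearest neighbours, small RNAs inside the genes, the 2 most similar genes, and the 10 largest isolated values of each layout, mostly as counts. Small RNAs and neighbours came from GENCODE M21 (GRCm38) and sequences from RefSeq (GRCm38.p6). Of the genes analysed, 88.4% matched a protein-coding gene by symbol; since the build differs from mm9, no coordinates are given. The rule for isolated values was tested on simulated data, and the other calls were not. Alternatives changed the pseudocount, scaling, fold, filter and small RNA rule. Python 3.11.15, pandas 2.3.3 and numpy 2.4.6 were used.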

Additional observations from a re-analysis of the deposited data

Results flagged for a closer look

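Some comparisons with WT ran in opposite directions in the single-end and paired-end columns of the same gene and genotype, each layout being 1 pooled value, and the difference between layouts was not tested. In BRCA the log2 difference from WT was -5.53 (single-end) and 0.40 (paired-end) for Tsr1, -2.37 and 0.36 for Hipk3, -2.11 and 0.23 for Prmt2, and -1.78 and 0.40 for Dgcr8. In CERM it was -2.36 and 0.34 for Hipk3 and -2.12 and 0.25 for Dgcr8. In AROM it was 2.01 and -0.59 for Ercc2, 0.50 and -1.72 for Map3k15, and 6.69 and -0.54 for Ncl, whose single-end value depends on the pseudocount because WT is listed at 0. The paired-end side of these was within 2-fold of WT, with the exception of Map3k15 in AROM.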

How the results depend on the processing

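Of 90 values recomputed under an alternative, 80 kept their direction and stayed within 1.5 times or their side of the threshold. Without a filter on low values, 134 genes had an isolated single-end and 115 an isolated paired-end value. At 8-fold these counts were 11 and 24, fewer by construction. Counting only snoRNAs, the share of hosts among genes with an isolated value was 3.12% (single-end) and 0% (paired-end). Without the 10 genes, the share with a 4-fold single-end excess among genes with a microRNA over an exon was 1.65%. Such an excess was found in 105 genes with a pseudocount of 0.1, 86 under median-ratio scaling and 102 under quantile normalization. The share and the count of this excess, with their alternatives, were chosen after the data were seen. Of the 30 alternatives for single genes, 27 kept their direction. Prmt2 in BRCA turned from 0.0342 (log2, single-end minus paired-end) to -0.0208 under median-ratio scaling and -0.0699 under quantile normalization, and Ercc2 in BRCA from 0.0735 to -0.0602 under the latter. Both are columns where the layouts were alike, and the cause was not tested. No paired analysis was possible because each column used is 1 pooled value of a genotype and layout, so a replicate block and leaving out replicates were not run. Depth is unknown, so counting error cannot be given.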
